A study of Mus musculus with 9 samples.

Results

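CpG methylation was compared at 7 mouse genes for receptors that guide lymphocytes into, through and out of lymphoid organs: the sphingosine 1-phosphate receptors S1pr1, S1pr2 and S1pr4, the chemokine receptors Cxcr4, Cxcr5 and Ccr7, and the integrin subunit Itga4. A CpG belonged to the gene that the deposited annotation (mouse build mm9) gives for it, and it was tested where each of the 9 libraries had at least 10 reads. This left 160 of 358 deposited CpGs of these genes, of 356320 tested CpGs in all. S1pr1 had 30 tested CpGs, S1pr2 had 20, S1pr4 had 29, Cxcr4 had 52, Cxcr5 had 7 and Ccr7 had 22. None of the 25 CpGs of Itga4 passed, so 6 of the 7 genes were tested. Plasma cells (B220low CD138+) and plasmablasts (B220mid CD138+) came from spleens on day 3 after lipopolysaccharide (LPS), a bacterial product that drives B cells to divide and secrete antibody. Naive B cells (B220+ CD43-) came from spleens of control mice. All mice were female C57Bl/6J of 10 weeks, and each population had 3 libraries. A level is the percentage of reads at a CpG that were methylated. In such bulk samples a change in the mixture of cells and a change within cells cannot be told apart.

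Sphingosine 1-phosphate is abundant in blood and lymph and scarce inside tissues. Cells with S1pr1 follow it out of lymphoid organs, while S1pr2 signals against migration. Chemokine receptors read gradients laid down by stromal cells: Cxcr5 leads B cells to follicles, Ccr7 leads lymphocytes to the T cell zone, and Cxcr4 holds plasma cells in the bone marrow. Itga4 is the alpha 4 integrin chain, which binds vascular and stromal ligands. CpGs near an active start site are usually unmethylated, and most CpGs elsewhere in the genome are methylated.

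Libraries held 16037172 to 29948088 reads over CpGs, and the median coverage of the 160 CpGs ran from 27 reads in the shallowest library to 41 in the deepest. Of the 358 CpGs, 36 had no read in naive B cells 2 and 47 had none in naive B cells 3, while the remaining libraries lacked at most 2. Over 18 mitochondrial CpGs the plasma cell libraries had levels of 0.896 to 1.05% and the plasmablast libraries 2.77 to 7.18%. Naive B cells 1 had 0.332%, naive B cells 2 had 3.89% and naive B cells 3 had 3.34%. The libraries thus fell on both sides of 2% unequally by population, and values within each side are given for the loci and for 2 segments. Over the 5 mitochondrial CpGs past the coverage minimum naive B cells 3 had 1.81%, so the side of that library depends on the CpGs taken. With the side as a term in a fit, each LPS population is in effect compared only with the naive libraries on its own side. By the 5 CpGs these are naive B cells 1 and 3 for plasma cells, and naive B cells 2 alone for plasmablasts. By the 18 CpGs they are naive B cells 1 alone for plasma cells, and naive B cells 2 and 3 for plasmablasts. CpGs within 1000 bp of the start sites of 4 of 10 B cell marker genes had levels of 1.08 to 1.75% in plasma cells, 1.99 to 7.51% in plasmablasts and 0.507 to 6.41% in naive B cells. Those of 4 of 13 T cell marker genes had 34.1 to 37.8% in plasma cells, 40.6 to 45.1% in plasmablasts and 43.4 to 48.0% in naive B cells. Plasma cell marker genes (4 of 10) averaged 24.5% in plasma cells, 27.8% in plasmablasts and 27.9% in naive B cells. For NK cell markers the means were 33.1, 37.4 and 43.1% in that order. Myeloid markers had 39.9, 46.7 and 46.7%, and erythroid markers 20.1, 27.9 and 33.8%.

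The promoter windows of Cxcr4 and Itga4 are shown because in these windows the deposited table covers CpGs close to a start site of the family. Both come from RefSeq (GRCm38.p6), 5′ to 3′ on the strand of the gene. Capitals mark the covered CpGs, placed by the spacing of their mm9 positions, which matched each window at 1 place.
Cxcr4 promoter, chr1:128592250-128592549, minus strand: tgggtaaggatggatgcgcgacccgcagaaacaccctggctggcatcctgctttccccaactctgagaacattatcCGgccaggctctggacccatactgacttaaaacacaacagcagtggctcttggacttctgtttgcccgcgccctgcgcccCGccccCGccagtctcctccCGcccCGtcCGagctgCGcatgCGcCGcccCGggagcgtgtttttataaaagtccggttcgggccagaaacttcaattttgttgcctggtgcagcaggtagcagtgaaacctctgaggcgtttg
Itga4 promoter, chr2:79255176-79255475, plus strand: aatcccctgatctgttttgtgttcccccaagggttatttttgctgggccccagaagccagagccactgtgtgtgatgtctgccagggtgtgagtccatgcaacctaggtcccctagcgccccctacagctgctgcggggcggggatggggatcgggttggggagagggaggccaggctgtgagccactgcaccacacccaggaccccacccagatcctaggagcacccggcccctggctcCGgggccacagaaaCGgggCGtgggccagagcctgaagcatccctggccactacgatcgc
The Cxcr4 window holds 20 CpGs, of which 10 are covered, and 3 copies of CCGG, the site cut by MspI. The Itga4 window holds 10 CpGs, of which 3 are covered, and 2 copies. CCGG, which reads the same on both strands, occurs in 52.78% of 32851 RefSeq promoter windows of this length. The 10 Cxcr4 CpGs lie -172 to -42 bp from the start site in mm9 and had mean pooled levels of 1.23% in plasma cells, 4% in plasmablasts and 0.4% in naive B cells. The Itga4 CpGs belong to a run of 15 at -9 to 281 bp, with mean pooled levels of 0.906% in plasma cells, 3.38% in plasmablasts and 0.77% in naive B cells. These runs were below the coverage minimum and were not tested. Levels were pooled over the libraries of a population, but the naive value of the Cxcr4 run is nearly that of naive B cells 1 alone, since naive B cells 2 had at most 2 reads per CpG there and naive B cells 3 had 0. In the Itga4 run naive B cells 2 and 3 had at most 10 reads per CpG.

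Averaged over each gene's tested CpGs, 4 of the 6 genes were less methylated in plasma cells than in naive B cells, and the same 4 in plasmablasts: S1pr1, S1pr2, Cxcr4 and Cxcr5. S1pr4 and Ccr7 passed in neither comparison, though Ccr7 was called lower in plasma cells under 2 alternatives given below. Of all 14220 gene loci with at least 5 tested CpGs, 79.8% were called lower in plasma cells and 57% in plasmablasts, so a lower level was common to most genes. None of the 6 was called higher, where 0.0211% of all loci were in plasma cells and 0.0633% in plasmablasts. The median difference over the 6 loci was -17.6 percentage points in plasma cells, against -11.9 over all loci, and -9.72 in plasmablasts, against -7.09 over all loci. A locus was called at an adjusted p under 0.01 (limma with Benjamini-Hochberg over all loci) and a difference of at least 5 points.

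S1pr1, the egress receptor, had locus levels of 41.2, 38.8 and 37% in plasma cells, 44.5, 47.7 and 46.4% in plasmablasts, and 59.1, 63 and 64.1% in naive B cells. The 3 populations did not overlap. The difference from naive B cells was -23.1 ± 1.62 points (adjusted p = 1.59e-09) in plasma cells and -15.9 ± 1.62 points (adjusted p = 6.19e-07) in plasmablasts; ± marks the SE of a difference throughout. S1pr2, which opposes migration, had 35.6, 27.7 and 28.6% in plasma cells, 38.7, 41.5 and 39% in plasmablasts, and 46, 46.1 and 48.3% in naive B cells, again with no overlap. Its difference from naive B cells was -16.2 ± 1.89 points (adjusted p = 2.90e-07) in plasma cells and -7.07 ± 1.89 points (adjusted p = 0.00288) in plasmablasts. The S1pr2 plasmablast call was lost without naive B cells 3, plasmablasts 1 or plasmablasts 3. It was also lost in a fit with a term for the library set (under or above 2% at the 5 mitochondrial CpGs). That fit in effect sets plasmablasts against naive B cells 2 alone, and the difference was -6.4 points. At a minimum of 20 reads the S1pr2 differences were -3.25 points in plasma cells and -0.153 points in plasmablasts, neither of them called. That minimum kept 57 of the 160 CpGs of these genes, so those differences cover fewer S1pr2 CpGs than the main ones. With reads summed over the CpGs, the S1pr2 differences were -13.7 points in plasma cells (adjusted p = 0.0949) and 0.0973 points in plasmablasts, and the S1pr1 plasmablast difference was -16 points (adjusted p = 0.023), none of them called.

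S1pr4, a receptor of the same family found on lymphoid cells, had locus levels of 14, 12.3 and 12.4% in plasma cells, 13.6, 19.5 and 14.9% in plasmablasts, and 14.9, 15.9 and 16.2% in naive B cells. Naive B cells and plasmablasts overlapped, and the plasma cell libraries lay below the naive libraries by little. The difference was -2.78 ± 1.56 points (adjusted p = 0.103) in plasma cells and 0.332 ± 1.56 points (adjusted p = 0.863) in plasmablasts, neither of them called. Its 29 tested CpGs lie between -2961 and 1768 bp, 20 of them in exons of the neighbouring gene Gna15 and 3 in the promoter of Ncln.

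Cxcr4, the receptor for bone marrow retention, had locus levels of 69.2, 65.2 and 66.1% in plasma cells, 69.6, 71.2 and 71.4% in plasmablasts, and 85.6, 86.2 and 85.7% in naive B cells. Both LPS populations lay wholly below the naive libraries. The difference was -19 ± 1.35 points (adjusted p = 1.74e-09) in plasma cells and -15.1 ± 1.35 points (adjusted p = 1.59e-07) in plasmablasts. Cxcr5, the follicle receptor, had 23.3, 22 and 21.7% in plasma cells, 26.6, 35.2 and 29.5% in plasmablasts, and 41.9, 45 and 41.6% in naive B cells, over 7 CpGs. Its difference was -20.5 ± 2.33 points (adjusted p = 2.12e-07) in plasma cells and -12.4 ± 2.33 points (adjusted p = 0.000142) in plasmablasts. With reads summed over its CpGs the Cxcr5 plasmablast difference was -4.71 points and was not called (adjusted p = 0.463).

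Ccr7, the T cell zone receptor, had locus levels of 48.1, 38.1 and 42.5% in plasma cells, 45.1, 49.2 and 45.5% in plasmablasts, and 43.3, 47.5 and 48.7% in naive B cells. The 3 populations overlapped, with differences of -3.58 ± 2.15 points (adjusted p = 0.126) in plasma cells and 0.0902 ± 2.15 points (adjusted p = 0.973) in plasmablasts. Without plasma cells 1 the plasma cell difference was -6.19 points and was called (adjusted p = 0.00458), and at a minimum of 5 reads it was -7.04 points and was called (adjusted p = 0.00467). Among the libraries under 2% over the 18 mitochondrial CpGs, plasma cells minus naive B cells 1 gave -20.1 points at S1pr1, -15.3 at S1pr2, -18.7 at Cxcr4, -19.6 at Cxcr5, -2.03 at S1pr4 and -0.361 at Ccr7. Among those above 2%, plasmablasts minus naive B cells 2 and 3 gave -17.3 points at S1pr1, -7.49 at S1pr2, -15.2 at Cxcr4, -12.8 at Cxcr5, -0.0455 at S1pr4 and -1.52 at Ccr7.

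**Figure D1:**
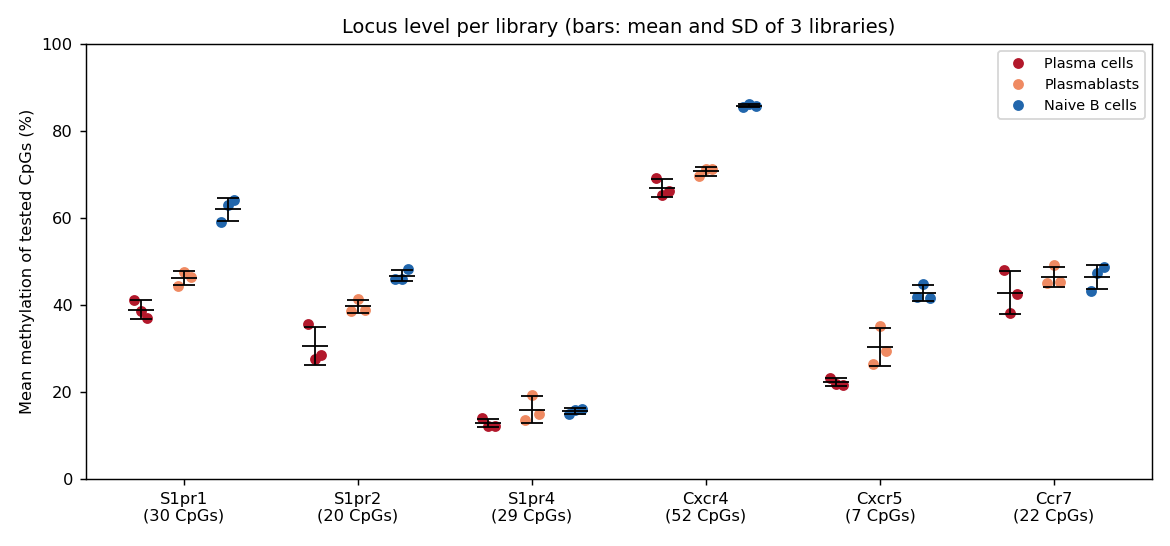
Mean methylation (percent) of the tested CpGs of each gene, 1 point per library, with the mean and SD of the 3 libraries of each population. The plasma cell libraries of S1pr1 sit at 37 to 41.2%, below the naive libraries at 59.1 to 64.1%, while the populations overlap at Ccr7.

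Between the LPS populations, S1pr1 and S1pr2 were called lower in plasma cells than in plasmablasts, with differences of -7.24 ± 1.62 points (adjusted p = 0.00351) and -9.1 ± 1.89 points (adjusted p = 0.0025). Of all loci 22.4% were called lower in this comparison and 0% higher. Cxcr5 differed by -8.12 ± 2.33 points (adjusted p = 0.0107) and Cxcr4 by -3.86 ± 1.35 points (adjusted p = 0.0254), neither of them called. The S1pr1 call was lost without plasma cells 2 (adjusted p = 0.0143), plasma cells 3 (adjusted p = 0.0198), plasmablasts 2 (adjusted p = 0.0296) or plasmablasts 3 (adjusted p = 0.014). The S1pr2 call was lost without plasma cells 2 (adjusted p = 0.0147), plasma cells 3 (adjusted p = 0.0136) or plasmablasts 2 (adjusted p = 0.0265). Without plasma cells 1, 5 of the 6 loci were called, where 42.6% of all loci were. All plasma cell libraries were below 2% at mitochondrial CpGs and all plasmablast libraries above it, so this contrast and that split cannot be told apart.

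To place the differences within the loci, tested CpGs of a gene no more than 250 bp apart were grouped into segments of at least 3 CpGs, 24 in all. Of these, 13 were lower in plasma cells and 8 in plasmablasts than in naive B cells (limma, adjusted p under 0.01 and at least 10 points), where 51.8% and 30.2% of all 46482 segments were called. Plasma cells were lower than plasmablasts in 2 segments, where 0.957% of all were called. S1pr1, S1pr2, Cxcr4 and Ccr7 had segments called lower in plasma cells, and none of the segments of S1pr4 or Cxcr5 was called. The Cxcr5 segment had a naive mean of 5.59%, and those of S1pr4 had 1.81, 3.46 and 21.7%. All but the last started below the 10 points that a lower call needs.

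The S1pr1 segment with the largest differences was an intergenic one of 5 CpGs at -15.2 kb (chr3:115433218-115433432, mm9). It had 39.6, 22.1 and 25.2% in plasma cells, 51.7, 51.9 and 53.7% in plasmablasts, and 86.3, 90.9 and 89.3% in naive B cells. The 3 populations were ordered with no overlap. The difference from naive B cells was -59.9 ± 3.71 points (adjusted p = 4.68e-07) in plasma cells and -36.4 ± 3.71 points (adjusted p = 5.69e-05) in plasmablasts. Within the sides of the mitochondrial split it was -57.4 points in plasma cells and -37.7 points in plasmablasts. Plasma cells lay below plasmablasts with a difference of -23.5 ± 3.71 points (adjusted p = 0.00679). That last call was lost in 8 of 9 settings that leave out 1 library, with adjusted p up to 0.0422. A segment of 4 CpGs at 58.2 kb had 80.6 ± 2.39% in plasma cells, 82.2 ± 2.94% in plasmablasts and 97 ± 1.81% in naive B cells (SD, n = 3 each), and was called lower in both LPS populations. The 7 promoter CpGs at -499 to -329 bp had 0, 1.03 and 0.68% in plasma cells, 1.51, 10.7 and 4.68% in plasmablasts, and 1.63, 7.14 and 11.5% in naive B cells, and were not called.

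In S1pr2, 2 intron segments of 4 CpGs each were lower. The one at 4.01 kb (chr9:20777004-20777226) had 72.8, 57.5 and 55.5% in plasma cells, 77.7, 76.7 and 81.4% in plasmablasts, and 94.7, 95.5 and 98.2% in naive B cells. The one at 4.5 kb (chr9:20776508-20776735) had 65.7, 59.8 and 58.8% in plasma cells, 75.4, 78.8 and 73.9% in plasmablasts, and 90.8, 84.5 and 89.6% in naive B cells. No population overlapped another in either segment. The plasma cell differences were -34.2 ± 3.93 points (adjusted p = 3.00e-05) and -26.8 ± 2.75 points (adjusted p = 1.55e-05). The plasmablast differences were -17.5 ± 3.93 points (adjusted p = 0.00371) and -12.3 ± 2.75 points (adjusted p = 0.00372). The first was lost without naive B cells 1, naive B cells 2, naive B cells 3, plasmablasts 1 or plasmablasts 2, and the second without naive B cells 1, naive B cells 3, plasmablasts 1 or plasmablasts 3. Closer to the start, 10 intron CpGs at 583 to 918 bp averaged 0 to 6.2% in every library.

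Cxcr4 had 9 segments, of which 7 were lower in plasma cells and 4 in plasmablasts. An intergenic segment of 3 CpGs at 52.8 kb (chr1:130436000-130436033) had 42.1, 26.7 and 52.4% in plasma cells, 33.3, 51.3 and 26.7% in plasmablasts, and 87.5, 89.2 and 80.4% in naive B cells. The LPS populations overlapped each other and lay below the naive libraries, with differences of -45.3 ± 6.75 points (adjusted p = 0.000146) in plasma cells and -48.6 ± 6.75 points (adjusted p = 0.000326) in plasmablasts. A Cxcr4 exon segment of 5 CpGs at 2776 to 3024 bp (chr1:130485845-130486093) had 79.6, 77.3 and 80.3% in plasma cells, 90.9, 88.7 and 92.2% in plasmablasts, and 96.8, 97.2 and 98.7% in naive B cells. Here plasma cells were below naive B cells with a difference of -18.5 ± 1.94 points (adjusted p = 1.74e-05), and below plasmablasts with one of -11.5 ± 1.94 points (adjusted p = 0.00923), while the plasmablast difference of -6.98 ± 1.94 points (adjusted p = 0.011) was not called. The call between the LPS populations was lost in 8 of 9 settings that leave out 1 library, with adjusted p up to 0.0347. The other 5 lower segments had plasma cell means of 69.2 to 85.2% against naive means of 94.5 to 98%, and the farthest lay at -308 kb (chr1:130797366-130797655). One of them, at -235 kb, was lower in plasmablasts with a difference of -12 ± 2.58 points (adjusted p = 0.00307), a call lost without naive B cells 1, naive B cells 2, naive B cells 3 or plasmablasts 2. The intron segment at 1132 bp averaged 0 to 5.31% in every library.

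Ccr7 had segments that moved in opposite directions. An intron segment of 3 CpGs at 8.77 kb (chr11:99007410-99007618) was lower in plasma cells, and an intron segment of 4 CpGs at 6.59 kb (chr11:99009565-99009801) was higher. The first had 79.1, 56.9 and 71% in plasma cells, 81, 83.9 and 86.7% in plasmablasts, and 93.3, 96.1 and 97.7% in naive B cells, a plasma cell difference of -26.7 ± 4.61 points (adjusted p = 0.000371). The second had 46.4, 46 and 49.3% in plasma cells, 42.1, 46 and 39.8% in plasmablasts, and 30.7, 41 and 39.3% in naive B cells, a plasma cell difference of 10.2 ± 2.99 points (adjusted p = 0.00944), where 0.0839% of all segments were called higher. The higher call was lost in 8 of 9 settings that leave out 1 library, with adjusted p up to 0.0446, and naive B cells 1 lay apart from the other naive libraries. Against naive B cells 1 alone, the naive library under 2% at mitochondrial CpGs, the difference was 16.5 points. An intergenic segment of 5 CpGs at -27.7 kb (chr11:99044062-99044272) had 31.1, 20.8 and 25.9% in plasma cells, 32.2, 34.1 and 25.3% in plasmablasts, and 14.6, 19.1 and 16.4% in naive B cells. Every LPS library lay above every naive library there. The plasmablast difference of 13.8 ± 3 points (adjusted p = 0.00315) was called, where 0.108% of all segments were called higher, and the plasma cell difference of 9.22 ± 3 points (adjusted p = 0.0167) was not. The plasmablast call was lost without naive B cells 1, naive B cells 3, plasmablasts 1 or plasmablasts 2. A segment of 3 exon CpGs at 10.1 kb was lower in plasma cells with a difference of -10.3 ± 3.03 points (adjusted p = 0.00993), a call lost in 8 of 9 settings that leave out 1 library, with adjusted p up to 0.0387.

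**Figure D2:**
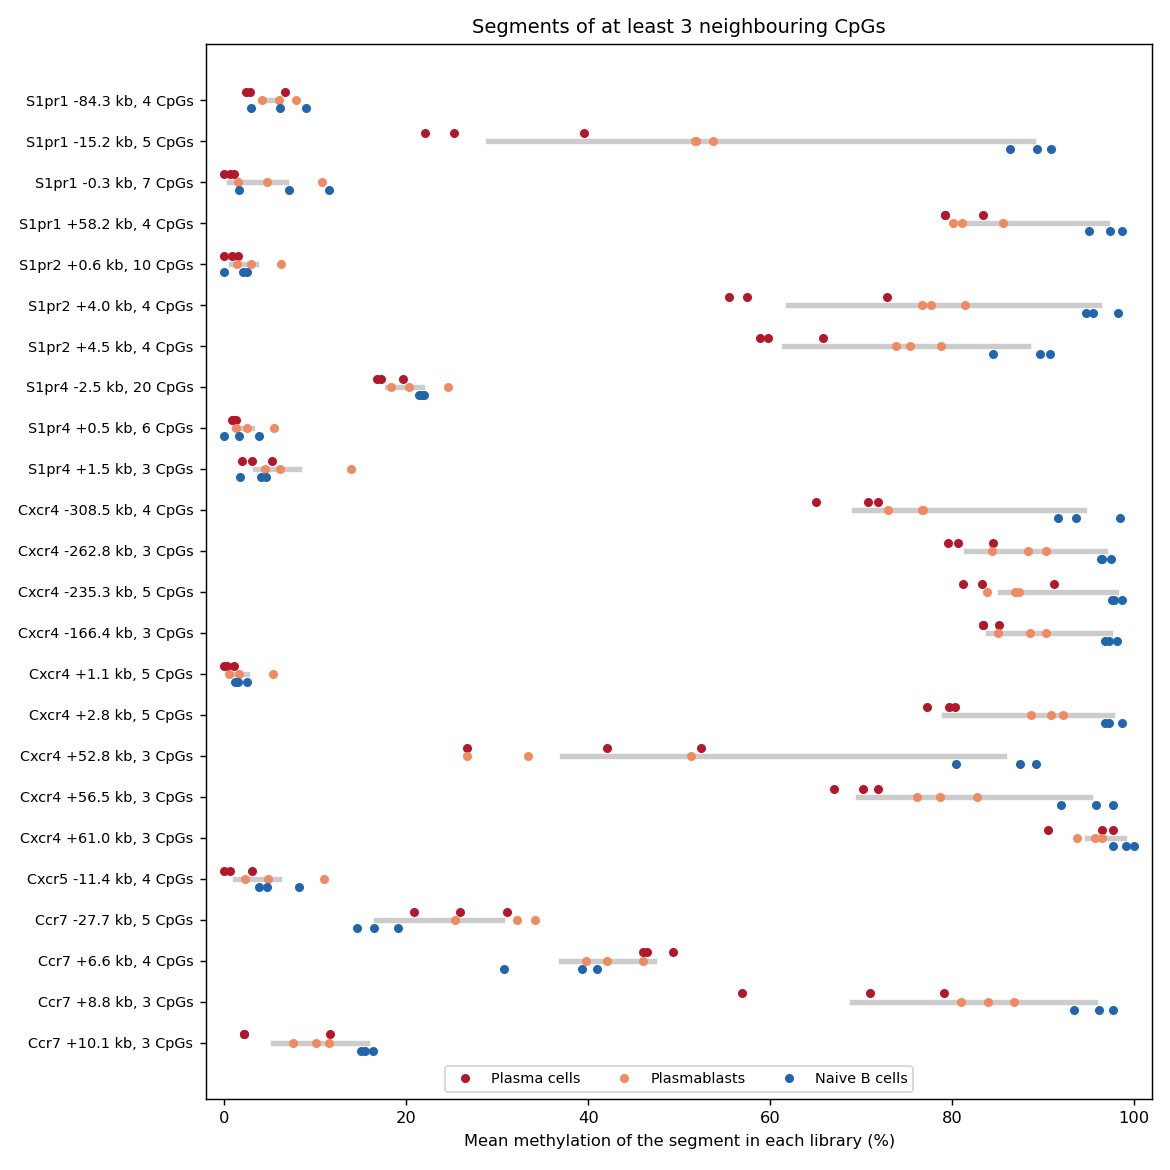
Mean methylation (percent) of each of the 24 segments, 1 point per library, with plasma cells above plasmablasts above naive B cells in each row, the distance from the start site in kb at the left, and a grey bar from the lowest to the highest population mean. The S1pr1 segment at -15.2 kb and the Cxcr4 segment at 52.8 kb have the widest bars, and the segments nearest the start sites of S1pr1, S1pr2 and Cxcr4 lie near 0.

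Single CpGs were tested with a quasi-binomial model; a call needed an adjusted p under 0.01 and pooled levels at least 20 points apart. Of the 160 CpGs, 41 were called lower in plasma cells than in naive B cells (25.6%, against 18.4% of all tested CpGs) and 18 in plasmablasts (11.25%, against 5.45%). Of these, 17 were called in both and 24 in plasma cells alone, and a single one in plasmablasts alone, a Cxcr4 CpG. S1pr1 had 12 CpGs lower in plasma cells and 7 in plasmablasts, S1pr2 had 7 and 1, Cxcr4 had 17 and 8, Cxcr5 had 3 and 2, and Ccr7 had 2 and 0. S1pr4 had 0 and 0 in this model, with 3 and 0 lower at an unadjusted p under 0.05. Of all 356320 tested CpGs, 185473 and 137351 were lower at that p. Of the 29 S1pr4 CpGs, 22 were under 20% in naive B cells. That leaves them little or no room for a fall of 20 points. At a minimum of 20 reads the order of the shares was the other way: 7 of 57 were lower in plasma cells (12.3%, against 24.1% of all) and 5 of 57 in plasmablasts (8.77%, against 10.9%). The counts also depended on single libraries, as did those over all CpGs. Without naive B cells 2 the plasma cell count was 15 (9.38%, against 4.75% of all). Without naive B cells 3 it was 27 (16.9%, against 9.7%). Without plasma cells 3 it was 24 (15%, against 8.02%), and without plasmablasts 2 it was 24 (15%, against 8.69%). The plasmablast count was 0 without any 1 of the naive or plasmablast libraries, where 0 to 0.287% of all CpGs were called. It was 10 without plasma cells 3 (6.25%, against 2.47% of all). A term for the library set in effect leaves naive B cells 1 and 3 to compare with plasma cells, and naive B cells 2 alone with plasmablasts. In the fit with the library set the counts were 15 in plasma cells (9.38%, against 4.41% of all) and 0 in plasmablasts (0% of all).

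No CpG was called between plasma cells and plasmablasts, of the 160 or of all tested (0%), although 33 of the 160 were lower and 1 higher at an unadjusted p under 0.05. At that p, 56129 of all 356320 CpGs were lower and 1277 higher. limma on log2 ratios of reads also called 0. In simulated data the quasi-binomial model missed large falls where fewer CpGs changed than between plasma cells and naive B cells, so its lack of calls here does not show that levels were equal. Higher in plasma cells than in naive B cells was 1 CpG, at Ccr7 6825 bp, where 0.0253% of all CpGs were called higher. It had 37.3, 36.1 and 36.2% in plasma cells, 34.3, 42.5 and 27% in plasmablasts, and 8.33, 21.7 and 16.9% in naive B cells, on 36 to 83 reads per library. Both LPS populations lay above the naive libraries there. The pooled levels differed by 20.2 points (adjusted p = 0.00761) in plasma cells, a call lost in 9 of 9 settings that leave out 1 library, with adjusted p up to 0.0302. In plasmablasts 0 of the 160 were called higher, against 0.0112% of all, with 7 higher at an unadjusted p under 0.05, and limma on log2 ratios called 0. At that unadjusted p, 10212 of all 356320 CpGs were higher in plasmablasts.

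By class, 30 of 84 intergenic CpGs were lower in plasma cells (35.7%, against 25.9% of all intergenic CpGs), 8 of 31 intron CpGs (25.8%, against 21.1%), 3 of 35 exon CpGs (8.57%, against 8.78%) and 0 of 10 promoter CpGs (against 6.07%). Mean levels of the intergenic CpGs were 58.5% in plasma cells, 63.7% in plasmablasts and 78.8% in naive B cells, and those of the promoter CpGs were 1.42% in plasma cells, 6.4% in plasmablasts and 5.78% in naive B cells. Among CpGs whose mean was 80% or higher in naive libraries, 39 of 85 were lower in plasma cells (45.9%, against 28.1% of all such CpGs) and 18 of 85 in plasmablasts (21.2%, against 8.7%). Of the 59 CpGs under 20% none was called lower, against 0.00274% of all such CpGs. A start under 20% leaves little or no room for the 20 points that a call needs. The 10 promoter CpGs, with a naive mean of 5.78%, had as little room. These shares were counted at the minimum of 10 reads.

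**Figure D3:**
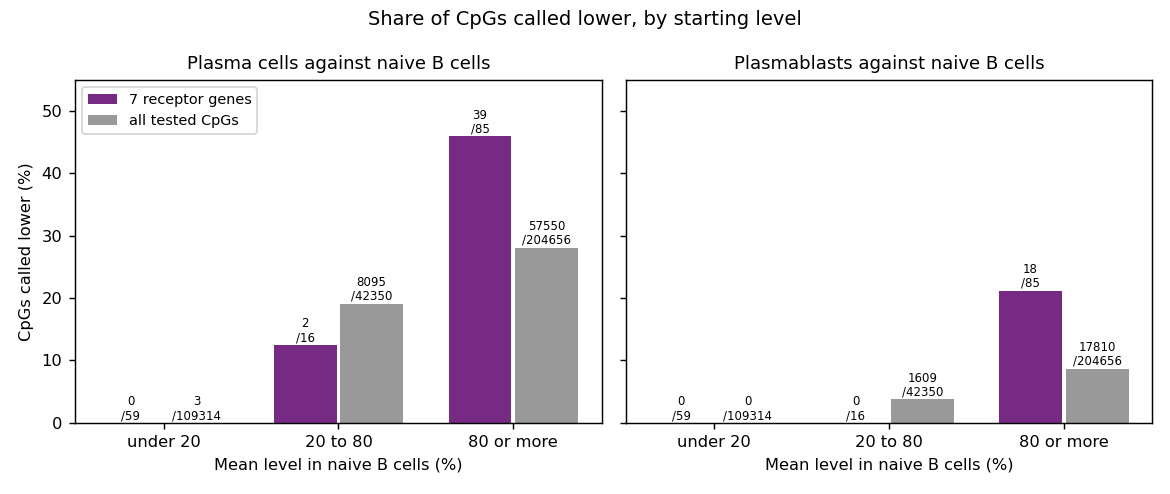
Share of CpGs (percent) called lower than in naive B cells, by the mean level in naive B cells, for the receptor genes beside all tested CpGs, in plasma cells (left) and plasmablasts (right), with counts over the bars. At 80% or more the receptor genes stand at 45.9% in plasma cells and 21.2% in plasmablasts, against 28.1% and 8.7% of all tested CpGs.

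The S1pr1 CpG with the largest fall, 160298 bp from the start site (chromosome 3, position 115257674), had 28, 35.3 and 20% in plasma cells, 26.7, 56.5 and 42.9% in plasmablasts, and 100% in each of the 3 naive libraries. It rested on 11 to 30 reads per library. Its pooled levels differed from naive B cells by -73.6 points (adjusted p = 0.000224) in plasma cells and -56.1 points (adjusted p = 0.00243) in plasmablasts. At S1pr1 -15458 bp the levels were 30.9, 18.2 and 19.6% in plasma cells, 46.2, 51.6 and 42.5% in plasmablasts, and 81.1, 91.4 and 91.7% in naive B cells, on 24 to 56 reads. Its neighbour at -15420 bp had differences of -62.3 points (adjusted p = 0.000133) in plasma cells and -42.2 points (adjusted p = 0.00341) in plasmablasts. The S1pr1 CpG closest to the start, at -329 bp, had 0, 0 and 1.59% in plasma cells, 2.5, 12.5 and 4.76% in plasmablasts, and 0, 10 and 7.69% in naive B cells, and was not called.

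At S1pr2, a CpG at -10432 bp had 56.2, 30.8 and 23.7% in plasma cells, 68.6, 62.5 and 63.3% in plasmablasts, and 85.1, 88.9 and 90% in naive B cells, on 10 to 47 reads. It was called in plasma cells, with -54.4 points (adjusted p = 0.000621), and not in plasmablasts, with -22.1 points (adjusted p = 0.0243). The intron CpGs at 4232 and 4038 bp differed by -38.1 points (adjusted p = 0.00134) and -36.4 points (adjusted p = 0.00119) in plasma cells. The S1pr2 CpG at 583 bp had 0% in each plasma cell library, 0 to 15.8% in plasmablasts and 0 to 3.85% in naive B cells. At S1pr4 the largest plasma cell differences were -15.3 points (adjusted p = 0.0356) at -2528 bp, -15.2 points (adjusted p = 0.0539) at -2808 bp and -10.5 points (adjusted p = 0.193) at -2564 bp, none of them called.

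At Cxcr4, a CpG at -43112 bp had 46.4, 29.6 and 21.1% in plasma cells, 51.9, 53.6 and 61.9% in plasmablasts, and 95.5, 91.9 and 90.5% in naive B cells, on 21 to 38 reads. Its neighbour at -43119 bp had 50, 48.3 and 42.1% in plasma cells, 48.1, 48.3 and 52.4% in plasmablasts, and 95.2, 97.4 and 100% in naive B cells. Every LPS library lay below every naive library at both. The plasma cell differences were -61.3 points (adjusted p = 0.000298) and -51.2 points (adjusted p = 0.000422), and the plasmablast differences -37.2 points (adjusted p = 0.00569) and -48.1 points (adjusted p = 0.00246). A CpG at -173441 bp had 40, 43.8 and 24.4% in plasma cells, 37.8, 43.9 and 48.1% in plasmablasts, and 93.1, 80.4 and 90% in naive B cells, with differences of -53.3 points (adjusted p = 0.000485) in plasma cells and -43.8 points (adjusted p = 0.0032) in plasmablasts.

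At Cxcr5 the CpGs called in plasma cells were at -12637, -20950 and 12526 bp. The first had 43.5, 52.6 and 38.1% in plasma cells, 61.5, 73.5 and 64.3% in plasmablasts, and 92.6, 85.7 and 93.3% in naive B cells, on 14 to 35 reads, and a plasma cell difference of -45.8 points (adjusted p = 0.00116). The second had 60.9, 40 and 52.9% in plasma cells, 50, 67.6 and 64% in plasmablasts, and 92, 96.2 and 100% in naive B cells, and a difference of -43.7 points (adjusted p = 0.00108). The exon CpG at 12526 bp had 47.1, 61.1 and 58.1% in plasma cells, 65.2, 61.8 and 59.2% in plasmablasts, and 93.2, 100 and 78.9% in naive B cells, and a difference of -37 points (adjusted p = 0.00221). That call was lost without naive B cells 1 (adjusted p = 0.0151), naive B cells 2 (adjusted p = 0.0134) or plasmablasts 2 (adjusted p = 0.0105). Without naive B cells 2 the difference was -34.7 points. The fit with the library set, which for plasma cells in effect leaves out that library, gave the same adjusted p and is not a separate check. At all 3 the LPS libraries lay below the naive libraries. At Ccr7 the intron CpG at 8980 bp had 65.9, 33.3 and 41.9% in plasma cells, 56.7, 65.7 and 70% in plasmablasts, and 86.8, 91.2 and 100% in naive B cells, and plasma cells 1 lay apart from the other plasma cell libraries there. Its plasma cell difference was -40.1 points (adjusted p = 0.00196), a call lost without naive B cells 2, plasma cells 3 or plasmablasts 2. The Ccr7 CpG at 8772 bp was also called lower in plasma cells. That call was lost without any 1 naive or plasmablast library, or without plasma cells 2 or 3. At a minimum of 5 reads the difference there was -22 points and was not called (adjusted p = 0.0135). Each of the plasmablast calls on named CpGs was lost without any 1 naive or plasmablast library.

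**Figure D4:**
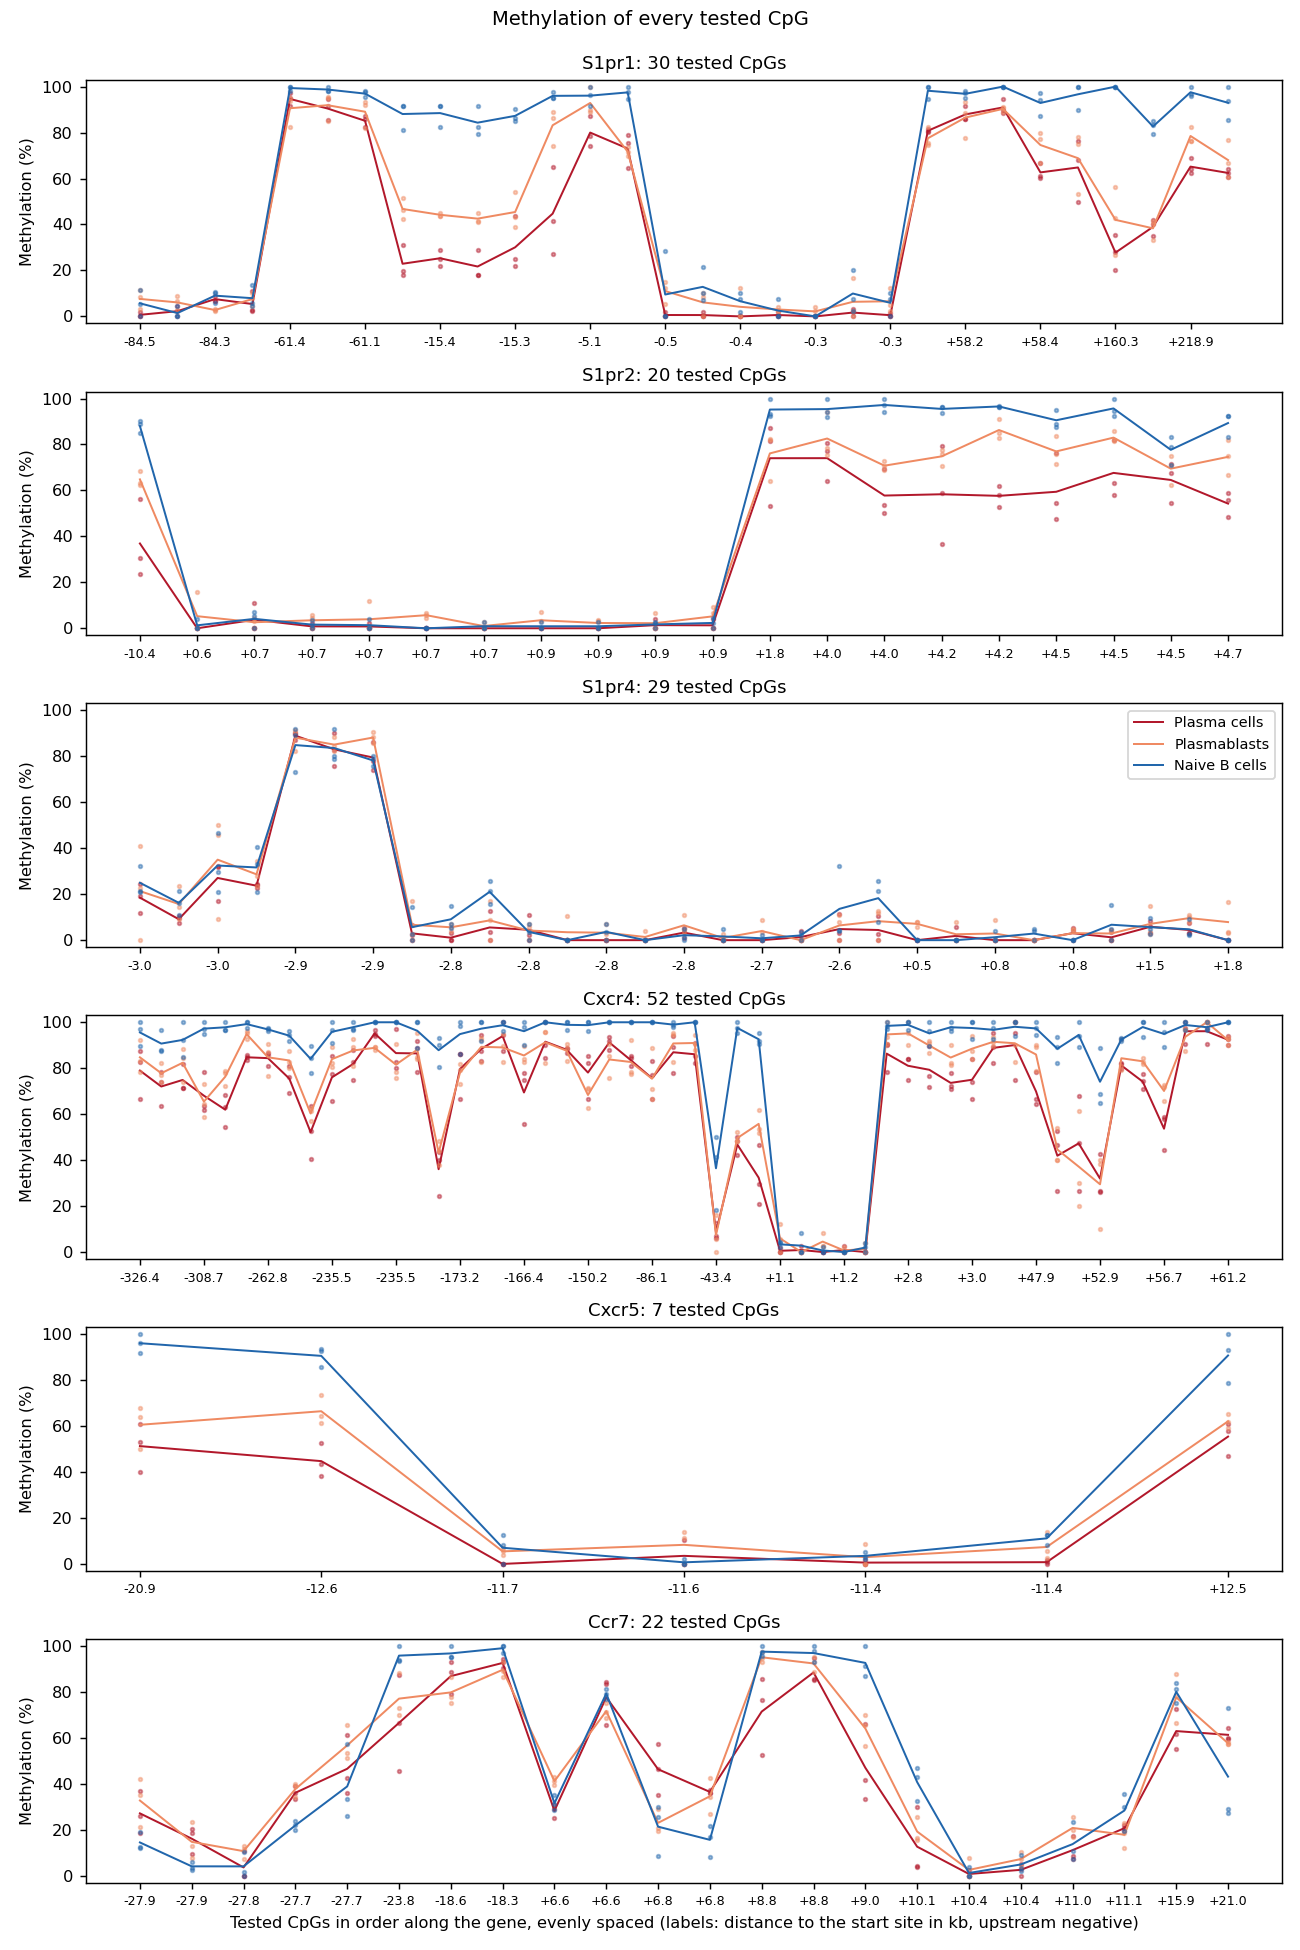
Methylation (percent) of every tested CpG of the 6 genes in order along the gene and evenly spaced, with points for libraries, lines for population means and labels for the distance from the start site in kb. Levels nearest the start sites of S1pr1, S1pr2 and Cxcr4 lie near 0 in every population, and the populations separate mainly at CpGs with a high naive level.

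**Figure D5:**
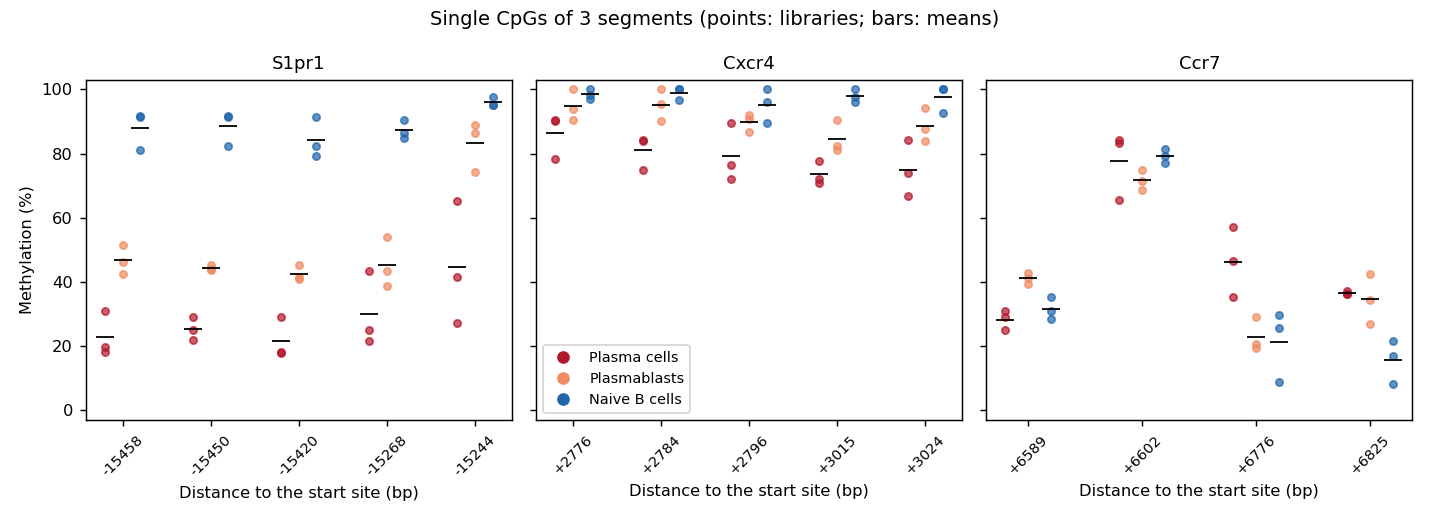
Methylation (percent) of single CpGs in an S1pr1, a Cxcr4 and a Ccr7 segment, with points for libraries, bars for means, plasma cells left of plasmablasts left of naive B cells, and the distance from the start site in bp below. The CpGs at -15458 and -15420 bp of S1pr1 separate the 3 populations, and of the 4 Ccr7 CpGs the one at 6825 bp was called higher in plasma cells.

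The authors' deposited table of CpGs that differ between plasma cells and naive B cells held 70 CpGs of the 7 genes, of which 37 were tested here and all 37 were called lower. The authors' deposited table for plasmablasts held 33, of which 17 were tested and 16 were called lower. Their tables rest on the same libraries, so this overlap is not independent support for the calls.

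Most other trafficking genes were lower as well, read here beside the 79.8% and 57% of all loci. Of 18 tested loci of other chemoattractant receptors, 15 were lower in plasma cells and 13 in plasmablasts, with a median plasma cell difference of -15.7 points. The largest fall was at Gpr183, the oxysterol receptor that positions B cells, with 18.3% in plasma cells, 22.5% in plasmablasts and 44.3% in naive B cells, before Cxcr2 (plasma cell difference -21.6 points), Cxcr1 (plasma cell difference -20.8 points) and Ackr2 (plasma cell difference -20.7 points). Of 23 integrin, selectin and adhesion loci, 20 were lower in plasma cells and 14 in plasmablasts, with a median of -13.4 points. Cd44, the hyaluronan receptor, had 21.2% in plasma cells, 35% in plasmablasts and 66.4% in naive B cells over 6 CpGs, before Pecam1 (plasma cell difference -25.2 points), Itga6 (plasma cell difference -20.1 points) and Selp (plasma cell difference -20.1 points). Of 14 loci of ligands and of sphingosine phosphate metabolism, all 14 were lower in plasma cells and 12 in plasmablasts, with a median of -14.3 points. The chemokine gene Ccl22 had 56.9% in plasma cells, 66.1% in plasmablasts and 92.4% in naive B cells, before Ppap2b (plasma cell difference -20.4 points), Sphk2 (plasma cell difference -20.3 points) and Fn1 (plasma cell difference -17.3 points). Of 31 loci of signalling partners and regulators, 26 were lower in plasma cells and 16 in plasmablasts, with a median of -10.2 points. Dock8, a guanine exchange factor for Cdc42, had 39.3% in plasma cells, 55.7% in plasmablasts and 75.9% in naive B cells, before Rapgef1 (plasma cell difference -32.7 points), Rgs18 (plasma cell difference -29 points) and Rgs16 (plasma cell difference -28.9 points). No locus of these 4 lists was called higher in either comparison.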

How the data were processed

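Reduced representation bisulfite sequencing cuts genomic DNA with MspI and reads methylation as cytosine that survives bisulfite. Bismark, Bowtie2 and build mm9 are named in the submitters' processing notes, without versions. The authors deposited counts of methylated and unmethylated reads per CpG and library, per the file headers, and the methylation level as a fraction. Microarray data of the study were not used here.

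Analyses ran in R 4.3.3 (limma 3.58.1). Each of 356320 CpGs had a quasi-binomial model with 1 level per population, its dispersion moderated over all tested CpGs (prior df 5.616) and kept at 1 or more, and an F test from the deviance. A prior from CpGs at 10 to 90%, which calls more CpGs in plasmablasts, stood in for a time and was set back to the planned form after the counts under both had been seen; it is given as an alternative. Loci (5 CpGs or more) and segments (3 or more, gaps up to 250 bp) were tested with limma on unweighted mean levels, with a variance trend on the number of CpGs. All p-values were adjusted by Benjamini-Hochberg over all CpGs, loci or segments. The CpG and locus models were tested on simulated data; there the CpG model recovered most large falls in the simulation that changed the most CpGs, and none or nearly none in those that changed fewer.

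The genes, lists and tests were chosen with earlier results of these data known. Named CpGs are, per gene, the 3 with the largest called plasma cell difference (the largest of any where fewer were called) and the one closest to the start site; each further list names the 4 loci with the largest called fall. The animals behind the libraries are not labelled, so p-values rest on variation among libraries that could be technical. Amplified reads carry no molecular identifiers, so depth bounds counting error alone. Alternatives were minimums of 5 and 20 reads, a threshold of 10 points, each library left out, the replicate number or a library set as a term, limma on log2 ratios of reads, summed reads, and no variance trend.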

Additional observations from a re-analysis of the deposited data

How the results depend on the processing

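Every called locus, segment and named CpG kept its direction under all alternatives run, except the S1pr2 locus in plasmablasts against naive B cells, which was 0.0973 points with reads summed over its CpGs. Counts moved more. CpGs lower in plasma cells numbered 41 (18.4% of all CpGs were called). They were 15 with the library set as a term (4.41% of all). With the set drawn from all mitochondrial CpGs, chosen after seeing the data, they were 3 (0.713% of all). At a minimum of 20 reads they were 7 of 57 (12.3%, against 24.1% of all). With the replicate block they were 0 (0% of all), and with 1 library left out 15 to 34 (4.75 to 16% of all). CpGs lower in plasmablasts numbered 18 (5.45% of all). With the dispersion prior from CpGs at 10 to 90%, chosen after seeing the data, they were 29 (10.5% of all). They were 0 with either library set (0 and 0.287% of all), a minimum of 5 reads (0.152%) and the replicate block (0%). At a minimum of 20 reads they were 5 of 57 (8.77%, against 10.9% of all). With 1 library left out they were 0 to 13 (0 to 3.16% of all). CpGs lower in plasma cells than plasmablasts numbered 0, and 1 with the prior from CpGs at 10 to 90% (0.584% of all). Lower loci numbered 4 in plasma cells and 4 in plasmablasts. At a minimum of 20 reads they were 2 and 2 of 5 (where 77.3% and 55% of all loci were called). With summed reads the plasmablast count was 1 (26.1% of all). Loci lower in plasma cells than plasmablasts numbered 2. They were 0 with either library set or with summed reads (0% of all loci), and 0 at 20 reads (17.5% of all). With no variance trend 1 was called (10.2% of all), and with 1 library left out 0 to 5 were (0.345 to 42.6% of all). Segments lower in plasma cells numbered 13. They were 7 with the set from all mitochondrial CpGs (21.7% of all segments) and 3 of 10 at 20 reads (46.8% of all). Segments lower in plasmablasts numbered 8. They were 2 and 5 with the library sets (3.83 and 21.4% of all) and 2 of 10 at 20 reads (28.8% of all). With 1 library left out they were 5 to 9 (16.3 to 33.3% of all). Segments lower in plasma cells than plasmablasts numbered 2. They were 0 with either library set (0% of all), at 5 reads (0.559%), with no variance trend (0.583%) and with the replicate block (0.241%). At 20 reads 1 was called (1.07% of all), and with summed reads 1 was (1.56% of all). With 1 library left out they were 0 to 5 (0.0624 to 3.95% of all). At 20 reads the receptor genes' shares of lower CpGs, loci and segments against naive B cells were thus below those of all features, while at the planned 10 reads those of CpGs and segments were above. The Ccr7 locus was called lower in plasma cells at a minimum of 5 reads, with -7.04 points. The causes were not tested.

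Libraries with the same replicate number did not deviate together (correlations from -0.029 to 0.030, against -0.037 to 0.042 for other pairs), so the numbers were not treated as pairs. The replicate block left 4, 4 and 2 loci in the 3 comparisons, where 79.1, 55.3 and 12.3% of all loci were called. It left 12 and 8 segments in the first 2, where 50.4 and 26.9% of all segments were called, and no single CpG (0% of all). At a coverage of 10 reads, 1 read moves a library's level at a CpG by 10 points.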

Other observations

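Some CpGs of these genes below the coverage minimum had pooled levels far apart between populations. Their values are given without a test, since at least 1 library had fewer than 10 reads. At Cxcr5, 4 intergenic CpGs near -36.4 kb averaged 13.98% in plasma cells, 22.0% in plasmablasts and 90.2% in naive B cells. The plasmablast value rests on 10 to 12 reads per CpG over its 3 libraries and the naive value on 20 to 35. Naive B cells 2 and 3 had at most 9 and 4 reads per CpG there. Also at Cxcr5, 6 exon CpGs near 12.3 kb averaged 25.8% in plasma cells, 39.8% in plasmablasts and 76.6% in naive B cells. At S1pr1, 4 intergenic CpGs near -43.7 kb averaged 1.74% in plasma cells, 10.3% in plasmablasts and 42.4% in naive B cells. Another 4 S1pr1 CpGs, in an exon near 2.19 kb, averaged 12.8% in plasma cells, 17.0% in plasmablasts and 43.3% in naive B cells. Both naive values rest mainly on naive B cells 1. Naive B cells 2 and 3 had at most 5 and 3 reads per CpG in the first run and 10 and 7 in the second. The 10 Itga4 CpGs away from its start site ranged from 75.4 to 94.1% in plasma cells, from 76.5 to 100% in plasmablasts and from 92.9 to 100% in naive B cells. At all of them but the CpG at -109.667 kb, naive B cells 2 and 3 had at most 3 reads each.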
